A study of Mus musculus with 12 samples.

Results

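Myb, Myc, Runx1, Hhex, Etv6, Lyl1 and Cdk6 are 7 genes that act in early blood cells and are known to be lowered as erythroid progenitors mature. They were taken by gene symbol from the 55487 genes that each library lists, and each symbol matched 1 row, so all 7 of 7 were found. RNA was sequenced in G1E-ER4, a clonal mouse erythroid progenitor line that has no GATA1 of its own and carries a form of it that estradiol switches on. Every culture, controls included, was transfected with siRNA at 2 times 24 h apart, received 100 nM β-estradiol with the second transfection and was harvested 24 h later. The 4 groups were siControl (control siRNA, n = 3), siControl plus DTPA (control siRNA and 25 µM of the zinc chelator DTPA, n = 2), siZIP10 (siRNA against the zinc importer ZIP10, encoded by Slc39a10, n = 3) and siZIP10 plus DTPA (both, n = 3). The file of the third siControl plus DTPA replicate holds the values of siZIP10 replicate 1 for all 55487 genes and was left out. Cells before estradiol were not analysed here, so whether the 7 genes were lowered by maturation in these cultures could not be checked. Replicates are described as biological, from 1 clonal line, and a p-value measures the spread between these cultures.

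The 7 proteins work at the steps where a blood progenitor either keeps dividing or takes a lineage. MYB and MYC are transcription factors that keep progenitors in cycle, and GATA1 is known to lower both as red cell maturation starts. RUNX1, ETV6, HHEX and LYL1 are transcription factors of the RUNX, ETS, homeobox and basic helix-loop-helix families with roles in stem cells and in the choice of lineage. CDK6 is not a DNA-binding factor but a kinase that, with a D-type cyclin, phosphorylates the retinoblastoma proteins and so opens the way to DNA replication.

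Start sites of genes that the results turn on, apart from Myc, are shown first. RefSeq windows of the GRCm38.p6 build, the 250 bases upstream of a start, matched 6 of the 7 genes. Myc had no window, so its start was not searched for any word. Runx1, which is transcribed from a distal and a proximal promoter, had 1 window for each. The windows below belong to Myb (chr10:21160985-21161234, minus strand), Hhex (chr19:37434591-37434840, plus strand), Lyl1 (chr8:84701207-84701456, plus strand) and the distal start of Runx1 (chr16:92826075-92826324, minus strand). They are read 5′ to 3′ on the strand of the gene, and the last base lies just before the start. Capitals mark, in the first 3, words of the metal response element, the site that the zinc sensor MTF1 binds (TGCACNC or TGCGCNC on either strand), and in Runx1 the E-box CACGTG that MYC with MAX binds.
Myb: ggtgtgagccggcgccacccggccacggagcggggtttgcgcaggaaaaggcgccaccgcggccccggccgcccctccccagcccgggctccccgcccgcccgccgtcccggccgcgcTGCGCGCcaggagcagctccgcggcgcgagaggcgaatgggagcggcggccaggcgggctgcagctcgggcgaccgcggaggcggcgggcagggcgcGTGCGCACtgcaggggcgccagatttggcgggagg
Hhex: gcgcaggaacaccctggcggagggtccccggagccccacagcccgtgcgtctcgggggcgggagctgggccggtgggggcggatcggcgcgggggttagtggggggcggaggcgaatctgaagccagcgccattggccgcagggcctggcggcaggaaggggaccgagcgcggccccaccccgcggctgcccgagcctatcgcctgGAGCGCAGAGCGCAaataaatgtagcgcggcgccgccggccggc
Lyl1: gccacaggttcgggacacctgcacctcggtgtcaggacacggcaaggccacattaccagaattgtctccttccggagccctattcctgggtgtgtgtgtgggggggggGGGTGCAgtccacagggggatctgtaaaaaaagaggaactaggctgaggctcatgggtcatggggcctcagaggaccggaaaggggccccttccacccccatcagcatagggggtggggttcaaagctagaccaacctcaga
Runx1: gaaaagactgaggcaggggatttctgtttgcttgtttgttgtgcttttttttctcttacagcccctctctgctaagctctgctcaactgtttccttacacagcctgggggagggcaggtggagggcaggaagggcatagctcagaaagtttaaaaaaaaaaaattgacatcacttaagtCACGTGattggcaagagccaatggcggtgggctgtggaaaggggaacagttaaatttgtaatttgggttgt
Metal response words occurred at 3 positions in the Myb window, at bases 132 to 126, 35 to 29 and 34 to 28 before the start, the last pair overlapping on opposite strands. Hhex had 2, at bases 44 to 38 and 37 to 31, and Lyl1 had 1, at bases 142 to 136. Among 32817 windows of the same length in the whole table, 21.4% held such a word, and the word is rich in G and C. The GC content was 81.2% in the Myb window, 76.0% in that of Hhex and 60.0% in that of Lyl1, against a median of 52.4% over all windows. CACGTG occurred at bases 71 to 66 before the distal Runx1 start and at bases 220 to 215 before the Cdk6 start, and in 6.02% of all windows. These starts are those of RefSeq, and the spans given below for Cdk6, Hhex and Runx1 begin further upstream. The Cdk6 window therefore lies within its span, and those of Hhex and the distal Runx1 start lie partly within theirs. GATA factors bind the word AGATAA, its form TGATAA that starts with T, and both of these with a final G. Such words were in 26.6% of all windows on either strand. None was in the windows of the 6 genes, and Myc could not be searched. A word in a window is a description of the sequence, and binding was not measured.

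All values are TPM, a gene's transcripts among 1e+06 in the library, which are scaled by gene length and can be compared between genes. In siControl, Runx1 had the highest level of the 7 genes at 43.9 ± 1.98 TPM (SD, n = 3). Myc followed at 22.3 ± 3.07 and Hhex at 20.8 ± 0.566 TPM, and these neighbours overlapped. Etv6 was at 16.7 ± 0.788, Cdk6 at 3.2 ± 0.124, Lyl1 at 1.35 ± 0.484 and Myb at 1.23 ± 0.267 TPM, of which Lyl1 and Myb overlapped. In siZIP10 plus DTPA the order was Myc (57.4 ± 3.23 TPM), Hhex (45.3 ± 2.62), Runx1 (34.7 ± 0.715), Etv6 (16.6 ± 1.68), Myb (8.4 ± 0.659), Cdk6 (3.69 ± 0.153) and Lyl1 (1.59 ± 0.636), all n = 3. No neighbours in that second order overlapped between libraries. Runx1 thus stood first in siControl and was below Myc and Hhex with both treatments.

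**Figure D1:**
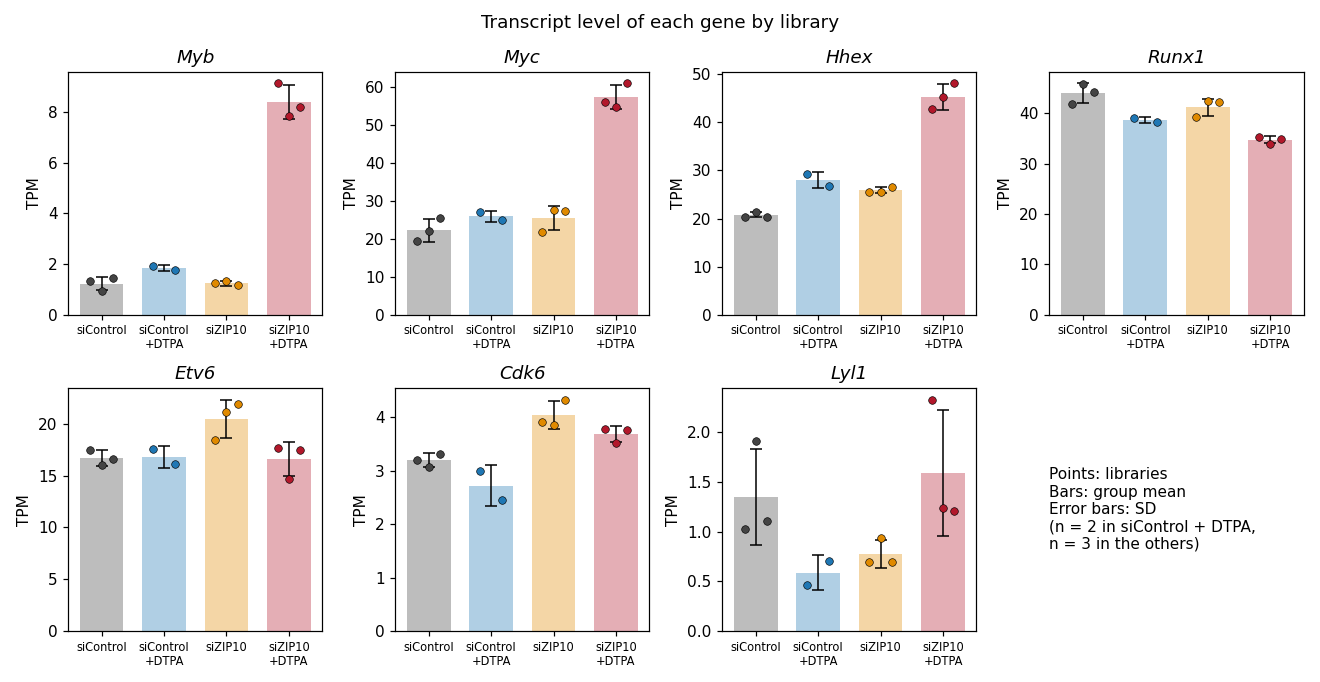
TPM of the 7 genes in every library, 1 panel per gene with an axis from 0. Points are libraries, columns are group means, error bars are SD, and siControl plus DTPA has 2 libraries. Myb, Myc and Hhex are highest in all 3 siZIP10 plus DTPA libraries, where Myb lies between 7.86 and 9.13 TPM against at most 1.92 elsewhere, and Runx1 is lowest there.

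The libraries held 19.67 to 24.75 M recovered reads (1 M is 1e+06). Slc39a10 itself was at 2.62 TPM in siControl, 23.9% of that in siZIP10, 8.05-fold higher with DTPA alone, and at 195% of siControl with both treatments, which was 24.2% of its level with DTPA alone. The doubly treated libraries stood apart in make-up: nuclear protein-coding genes held 77.33% to 79.64% of TPM (82.64% to 84.08% elsewhere), mitochondrial rRNA 1.43% to 1.45% (0.26% to 0.42%) and ribosomal protein genes 10.47% to 10.8% (7.85% to 9.27%). How far this make-up sets the changes below was not tested beyond the other scalings given for each gene. Tests were run with limma on log2(TPM + 1) over 11379 genes, with Benjamini-Hochberg adjustment and a threshold of 0.05. A log2 change is on that scale, which understates the change of low genes, while a fold is the ratio of mean TPM.

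Against siControl, 3 of the 7 genes rose with both treatments and 1 fell. Over all tested genes 26.7% rose and 39.9% fell in that comparison, 66.6% together, so a call there was common. The median log2 change of the 7 genes was 0.16, and that of all tested genes was -0.08. Myb, Myc and Hhex rose, Runx1 fell, and Etv6, Lyl1 and Cdk6 did not pass the test. In these bulk samples, fewer cells with a transcript and less of it per cell cannot be told apart.

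Myb (ENSMUSG00000019982.15, mm10 chr10:21124935-21160984, minus strand) encodes the transcription factor that sustains immature blood cells. Its level was 1.32, 0.933 and 1.44 TPM in siControl, 1.92 and 1.75 in siControl plus DTPA, 1.24, 1.33 and 1.16 in siZIP10, and 9.13, 7.86 and 8.2 TPM in siZIP10 plus DTPA. The doubly treated libraries were all above the rest, and the 2 libraries with DTPA alone lay between them and the other 6, without overlap. At this low level the 3 other groups rest on 58 to 126 reads per library and the doubly treated one on 509 to 604. With both treatments Myb was 6.81-fold higher than in siControl (log2 change 2.08, SE 0.12; limma adjusted p = 6.17e-08), which ranked 252nd by size among the 11379 genes. DTPA raised it 6.75-fold in siZIP10 cells (2.06; limma adjusted p = 9.64e-08). In siControl cells DTPA gave 1.48-fold, which did not pass (0.35, SE 0.13; limma adjusted p = 0.0757), though 2 other fits called it, voom on recovered reads (0.62, adjusted p = 0.00724) and limma without the trend (adjusted p = 0.0297). The knockdown alone gave a log2 change of 0.01 with a 95% interval of -0.25 to 0.28.

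Myc (ENSMUSG00000022346.15, mm10 chr15:61985391-61990374, plus strand) encodes the factor that drives growth and ribosome production. Its level was 19.4, 22 and 25.5 TPM in siControl, 27 and 25 in siControl plus DTPA, 21.9, 27.6 and 27.3 in siZIP10, and 56.2, 54.9 and 61 TPM in siZIP10 plus DTPA. The first 3 groups overlapped one another, and every doubly treated library was far above all of them. With both treatments Myc rose 2.58-fold against siControl (1.33, SE 0.1; limma adjusted p = 7.64e-07), 2.24-fold against siZIP10 (1.14; limma adjusted p = 3.77e-06) and 2.2-fold against siControl plus DTPA (1.11; limma adjusted p = 1.64e-05). Neither treatment alone passed: DTPA gave 0.22 (95% interval -0.03 to 0.48) and the knockdown 0.19 (-0.04 to 0.43). DTPA alone passed with voom (adjusted p = 0.037) and the knockdown alone passed without siZIP10 replicate 1 (limma adjusted p = 0.0496).

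Hhex (ENSMUSG00000024986.12, mm10 chr19:37434810-37440731, plus strand) encodes a homeobox repressor of transcription that acts in early blood and endothelial development. It was at 20.4, 21.4 and 20.4 TPM in siControl, 29.2 and 26.8 in siControl plus DTPA, 25.6, 25.5 and 26.6 in siZIP10, and 42.8, 45.2 and 48.1 TPM in siZIP10 plus DTPA. All 4 groups were separate: siControl was lowest, siZIP10 next, siControl plus DTPA just above it, and both treatments together highest. It was the only one of the 7 genes that passed the test in every comparison. Hhex rose 1.35-fold with DTPA alone (0.41, SE 0.06; limma adjusted p = 0.000325), 1.25-fold with the knockdown alone (0.31, SE 0.05; limma adjusted p = 0.00104) and 2.18-fold with both (1.09, SE 0.05; limma adjusted p = 1e-08). The 14 calls of Myb, Myc and Hhex over the 6 comparisons held in all alternatives that could be run for them.

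Runx1 (ENSMUSG00000022952.17, mm10 chr16:92601466-92826149, minus strand) encodes the RUNX factor needed for the first blood stem cells and for platelet formation; its TPM sums the transcripts of both promoters. It was at 41.9, 45.8 and 44.1 TPM in siControl, 39 and 38.2 in siControl plus DTPA, 39.3, 42.3 and 42.1 in siZIP10, and 35.3, 33.9 and 34.8 TPM in siZIP10 plus DTPA. The doubly treated libraries were the lowest, without overlap with any group. With both treatments Runx1 fell to 78.9% of siControl (-0.33, SE 0.04; limma adjusted p = 3.62e-05) and to 84.1% of siZIP10 (-0.24; limma adjusted p = 0.000475). It also passed with DTPA alone at 87.8% of siControl (-0.18, SE 0.05; limma adjusted p = 0.014), but the call needed both DTPA libraries of that group (adjusted p = 0.0526 when replicate 1 was left out and 0.091 when replicate 2 was). The knockdown alone gave -0.09 and did not pass (limma adjusted p = 0.132). Over all alternatives the Runx1 change with both treatments against siControl was -0.37 to -0.22, and over left-out libraries -0.37 to -0.3. For DTPA in siZIP10 cells it was -0.28 to -0.16 and -0.28 to -0.22 in the same order. Both calls held in every alternative, but the smallest falls came from other processing, not from a left-out library.

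Etv6 (ENSMUSG00000030199.16, mm10 chr6:134035700-134270158, plus strand) encodes an ETS-family repressor of transcription that acts in stem cells and megakaryocytes. Its level was 17.5, 16 and 16.6 TPM in siControl, 17.6 and 16.1 in siControl plus DTPA, 18.4, 21.1 and 21.9 in siZIP10, and 17.7, 14.7 and 17.5 TPM in siZIP10 plus DTPA. The siZIP10 libraries were above all others, and the other 3 groups overlapped. Etv6 passed the test with the knockdown alone at 1.23-fold (0.28, SE 0.08; limma adjusted p = 0.0285), but the call was lost with no filter on low genes (adjusted p = 0.0677) and without siControl replicate 2 (0.0901) or 3 (0.0726) or siZIP10 replicate 2 (0.0852) or 3 (0.099). In siZIP10 cells DTPA lowered it to 81.1% (-0.29, SE 0.08; limma adjusted p = 0.0114). With both treatments against siControl the log2 change was -0.01, with a 95% interval of -0.2 to 0.17, and its sign changed with the scaling.

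Lyl1 (ENSMUSG00000034041.4, mm10 chr8:84701457-84704715, plus strand) encodes a basic helix-loop-helix factor closely related to TAL1. It was at 1.03, 1.91 and 1.11 TPM in siControl, 0.467 and 0.71 in siControl plus DTPA, 0.692, 0.941 and 0.697 in siZIP10, and 2.33, 1.24 and 1.21 TPM in siZIP10 plus DTPA. Both single treatments lay below siControl and below the double treatment without overlap, while siControl and the double treatment overlapped. These levels rest on only 6 to 31 reads per library. Lyl1 reached the mean of 1 TPM needed for testing only through the doubly treated libraries, and without them its mean lay below that filter. Neither single treatment passed: DTPA alone stood at 43.6% of siControl (-0.55, SE 0.24; limma adjusted p = 0.113, and 0.0431 with quantile normalization) and the knockdown alone at 57.5% (-0.39, SE 0.21; limma adjusted p = 0.205). With both, the log2 change against siControl was 0.13 (95% interval -0.34 to 0.61), and it was -0.06 without siZIP10 plus DTPA replicate 1.

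Cdk6 (ENSMUSG00000040274.11, mm10 chr5:3341485-3531008, plus strand) encodes the cell-cycle kinase. Its level was 3.2, 3.07 and 3.32 TPM in siControl, 3 and 2.45 in siControl plus DTPA, 3.92, 3.85 and 4.33 in siZIP10, and 3.79, 3.52 and 3.77 TPM in siZIP10 plus DTPA. The groups did not overlap: siControl plus DTPA was lowest, then siControl, then the double treatment, and siZIP10 was highest. The differences were small, and none against siControl passed: DTPA gave -0.18 (limma adjusted p = 0.238), the knockdown 0.26 (0.0535) and both 0.16 (0.146). The knockdown alone passed in 3 other scalings (0.26 to 0.27), by voom (0.35, adjusted p = 0.000863), by limma with no trend (adjusted p = 0.0133), and on leaving out siControl plus DTPA replicate 1 (adjusted p = 0.0499) or 2 (0.0486). The double treatment passed with median-of-ratios scaling (0.23, adjusted p = 0.0288), rescaling to nuclear protein-coding genes (0.24, 0.0375), limma without the trend (0.044) and voom (0.28, 0.00264).

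**Figure D2:**
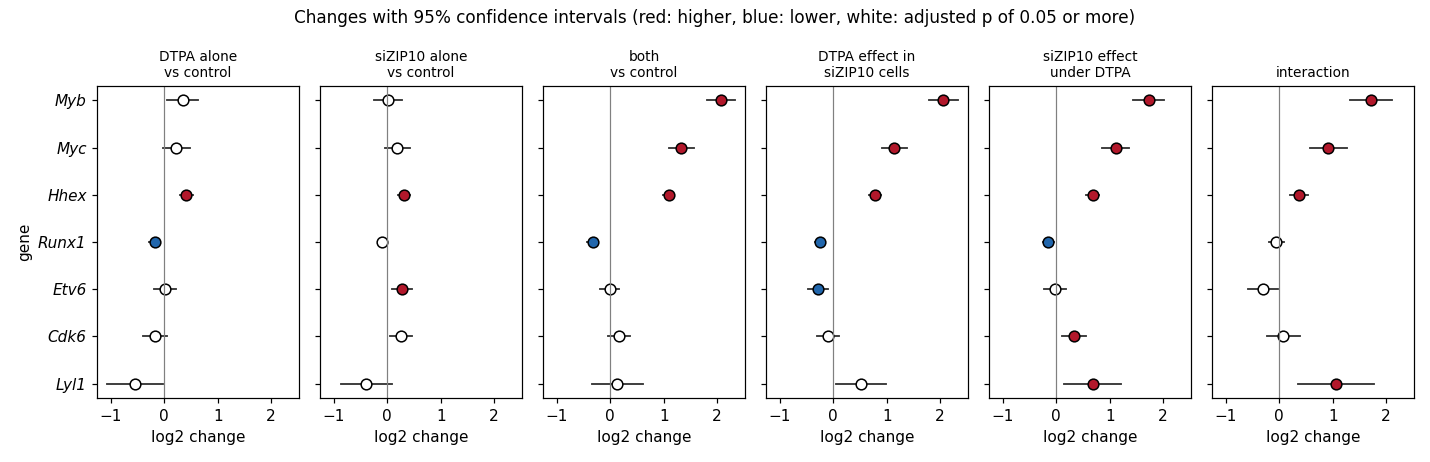
log2 changes of the 7 genes (rows) in the 6 comparisons (panels); points are limma estimates on log2(TPM + 1), bars are 95% confidence intervals, and colour marks an adjusted p below 0.05 (red higher, blue lower, white not called). Myb, Myc and Hhex lie to the right in every comparison with the double treatment, at 2.08, 1.33 and 1.09 against siControl, and Runx1 lies to the left at -0.33.

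Each treatment alone called a share of the 7 close to that of all tested genes. DTPA in siControl cells called 1 higher (Hhex) and 1 lower (Runx1), where 9.98% of all tested genes rose and 18.8% fell, 28.8% together. The knockdown in the absence of DTPA called 2 higher (Hhex and Etv6) and 0 lower, where 13.1% of all genes rose and 17.5% fell, 30.6% together. In limma 0 were lower also at an unadjusted p below 0.05, and voom gave 0. The median change of the 7 was 0.01 with DTPA (all genes -0.04) and 0.19 with the knockdown (all genes -0.01). These comparisons share the siControl libraries.

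The knockdown was also compared within DTPA cultures, where siControl plus DTPA has n = 2. There 5 of the 7 genes passed as higher and 1 as lower, against 21.3% and 31.7% of all tested genes, 53.1% together. The 5 include Lyl1, which was tested only because of the doubly treated libraries, the group where it is high. Myb was 4.59-fold higher (1.73; limma adjusted p = 1.54e-06), and Hhex was 1.62-fold higher (0.68; limma adjusted p = 2.53e-06). Myc was the third that rose, by the 1.11 given with its values. Lyl1 at 2.7-fold (0.68, SE 0.24; limma adjusted p = 0.0331) and Cdk6 at 1.36-fold (0.34, SE 0.1; limma adjusted p = 0.0181) passed less firmly. Lyl1 lost its call when only the groups compared were fitted (adjusted p = 0.0656) and on leaving out siControl plus DTPA replicate 1 (0.169) or 2 (0.0663) or siZIP10 plus DTPA replicate 1 (0.107). Cdk6 lost it when only the groups compared were fitted (adjusted p = 0.0638), without siControl plus DTPA replicate 2 (0.23, adjusted p = 0.163) and with the repeated library kept under its label (0.2, 0.183). Runx1 passed at 89.9% (-0.15, SE 0.05; limma adjusted p = 0.0198), but not with median-of-ratios scaling (-0.1, adjusted p = 0.0897), rescaling to nuclear protein-coding genes (-0.07, 0.198) or quantile normalization (-0.09, 0.1), nor without either siControl plus DTPA library or siZIP10 plus DTPA replicate 2. Etv6 gave -0.02 with a 95% interval of -0.23 to 0.18. DTPA in siZIP10 cells called 3 higher (Myb, Myc and Hhex) and 2 lower (Runx1 and Etv6), where 23.1% of all genes rose and 37.3% fell, 60.4% together. Lyl1 in that comparison was 2.05-fold higher and did not pass (0.52; limma adjusted p = 0.0556), although 7 of the alternatives called it.

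The interaction asks whether the effect of DTPA differed between siZIP10 and siControl cells. It was positive and passed for 4 of the 7 genes and negative for 0, where 12% of all tested genes passed as positive and 20.4% as negative, 32.4% together. At an unadjusted p below 0.05 limma had 1 negative gene, Etv6, and voom called 1. Myb had the largest, at 1.72 (SE 0.18; limma adjusted p = 4.23e-05): the single changes sum to 0.36 on the log2 scale and the double treatment gave 2.08. Myc had 0.92 (SE 0.16; limma adjusted p = 0.00121), from a sum of 0.42 to 1.33. For Hhex it was 0.37 (SE 0.07; limma adjusted p = 0.00338), since its single changes already summed to 0.72 of the 1.09. Lyl1 had 1.07 (SE 0.32; limma adjusted p = 0.0262), because its single changes were both negative and summed to -0.94 while the double treatment gave 0.13. This gene was in the test only through its doubly treated libraries. The Lyl1 call needed each of 5 libraries, and was lost on leaving out siControl replicate 2 (adjusted p = 0.0578), siControl plus DTPA replicate 1 (0.0961), siZIP10 replicate 1 (0.0524) or 3 (0.0521), or siZIP10 plus DTPA replicate 1 (0.0522). Runx1 had an interaction of -0.06 (95% interval -0.2 to 0.08) and Cdk6 of 0.07 (-0.23 to 0.38), so their double changes of -0.33 and 0.16 lay close to the sums of -0.27 and 0.09. Etv6 had -0.3 and did not pass (limma adjusted p = 0.0931), although it passed with quantile normalization, voom, siZIP10 replicate 1 left out or the repeated library kept.

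Over the 11 libraries, Myb, Myc and Hhex varied together on the log2 scale. Pearson's r was 0.97 for Myb with Myc, 0.94 for Myb with Hhex and 0.96 for Myc with Hhex, and Runx1 ran opposite to Hhex (-0.93), Myb (-0.89) and Myc (-0.83). Etv6 and Cdk6 had r = 0.63, both being highest in siZIP10. The points share groups, so these values mostly restate the group means and carry no p. By the same measure the 3 tested genes most like each member were Sbds, Igf1r and Aldh2 for Myb (each 0.995), Ptms (0.989), Ankrd24 (0.989) and Stk19 (0.987) for Myc, and Eid2 (0.994), Foxp1 (0.994) and Adck1 (0.993) for Hhex. For Runx1 they were Xrcc1 (0.982), Slc12a4 (0.976) and Gm13493 (0.971), and for Etv6 Rsbn1l (0.944), Tmem170b (0.94) and Rbms1 (0.934). Those of Lyl1 were Ehd2 (0.954), Gm12416 (0.926) and Brms1l (0.899), and those of Cdk6 were Slc7a5 (0.958), Hnrnph3 (0.956) and Etnk1 (0.955). Igf1r, the receptor for insulin-like growth factor 1, followed Myb from 0.612 TPM in siControl to 7.32 with both treatments. It was at 1.24 TPM with DTPA alone and 0.615 with the knockdown alone. Gm12416 was at 1.27 TPM in siControl, 0.595 with DTPA alone, 0.537 with the knockdown alone and 1.85 with both. Igf1r and Gm12416 thus reached the filter of 1 TPM, and so this ranking, only through the doubly treated libraries. Foxp1, a forkhead repressor, followed Hhex from 11.5 to 28.8 TPM.

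Of the 6 neighbouring genes that could be tested, 5 fell with both treatments and 1 rose. Over all tested genes 39.9% fell and 26.7% rose in that comparison, so a call there was common. Kif11, which encodes a mitotic spindle motor and lies 12950 bases from Hhex, was at 24 TPM in siControl, 9.64 with DTPA, 8.65 with the knockdown and 0.938 with both. It fell by 3.69 on the log2 scale with both treatments (limma adjusted p = 1.2e-10), where Hhex rose by 1.09. Ahi1, 44505 bases from Myb, fell from 5.58 to 2.99 TPM (-0.72; limma adjusted p = 7.63e-05), and Hbs1l on the other side rose by 0.12 (limma adjusted p = 0.0149). Trmt1, 1648 bases from Lyl1, fell by 0.24 (limma adjusted p = 0.0258), Fam133b, 12824 bases from Cdk6, by 0.43 (limma adjusted p = 5.77e-06) and Exoc6, on the other side of Hhex, by 0.19 (limma adjusted p = 0.000829). Trmt1 lost its call with median-of-ratios scaling (adjusted p = 0.102), nuclear rescaling (0.107) and quantile normalization (0.0541), and Exoc6 with quantile normalization (-0.03, 0.421). The protein-coding neighbours of Myc, Runx1 and Etv6 were below the filter of 1 TPM. Antisense genes overlap exons of Myb, Runx1, Etv6 and Cdk6 and all 4 are listed at 0 in every library, while Nfix shares 4 bases with Lyl1.

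Genes known to work with the members were followed in lists. With both treatments against siControl, 39.9% of all tested genes fell and 26.7% rose, and the list counts are to be read beside these shares. In doubly treated cells against siControl, MYC's own partners and antagonists were mixed: of 8 tested, 2 rose and 3 fell, against 4 and 1 with median-of-ratios scaling, nuclear rescaling or quantile normalization. Max, the partner MYC needs to bind DNA, fell from 224 to 169 TPM (-0.4; limma adjusted p = 1.74e-07), and Mxd1, which competes for MAX, rose from 117 to 158 TPM (0.43; limma adjusted p = 2.05e-07). Of 14 tested MYC target genes, 11 fell and 1 rose, with a median log2 change of -0.39 against -0.08 for all tested genes. Thus Odc1, the first enzyme of polyamine synthesis, fell from 197 to 104 TPM (-0.91; limma adjusted p = 5.72e-09), Ppat, which opens purine synthesis, from 17.6 to 7.61 (-1.12; limma adjusted p = 4.57e-06), and Ran, the nuclear transport GTPase, from 256 to 120 TPM (-1.09; limma adjusted p = 2.02e-10). The 1 that rose was Srm, spermidine synthase, from 17.3 to 36.7 TPM (1.04; limma adjusted p = 3.15e-06). With other scalings or voom, 9 or 10 fell and 2 or 3 rose. In the same list 11 fell with DTPA alone, where 18.8% of all tested genes fell; 8 fell with median-of-ratios scaling and 7 with quantile normalization. With the knockdown alone 9 fell, where 17.5% of all tested genes fell, and 1 rose, Npm1, a nucleolar chaperone (0.19; limma adjusted p = 0.00245). Myc itself did not pass in either comparison.

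Where Myb rose, both of its relatives fell. All 4 genes of the MYB list, Mybl1, Mybl2 and the coactivator genes Ep300 and Crebbp, were lower with both treatments, with a median of -0.79. Of all tested genes, 39.9% were lower there. Mybl2, the B-MYB gene of dividing cells, went from 16.4 ± 0.595 TPM in siControl to 6.29 ± 0.889 with DTPA (n = 2), 6.34 ± 0.0585 with the knockdown and 1.93 ± 0.369 with both (SD, n = 3 unless stated; -2.58 for the last, limma adjusted p = 2.87e-09). Mybl1 fell from 4.93 to 1.69 TPM (-1.15; limma adjusted p = 3.53e-05).

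Of the CDK6 partners and inhibitors, 7 of 10 tested fell and 2 rose, where 39.9% of all tested genes fell and 26.7% rose. Their median was -0.13, close to the -0.08 of all tested genes, and 4 or 5 fell and 3 rose under other scalings. Cdk4, the kinase that shares CDK6's cyclins and substrates, fell from 142 to 66.5 TPM (-1.08; limma adjusted p = 3.94e-09). Cdkn2c, the inhibitor p18, fell from 302 to 112 TPM (-1.42; limma adjusted p = 1.44e-11), and Rbl1, the retinoblastoma relative p107, from 14 to 4.12 TPM (-1.55; limma adjusted p = 8.13e-09). The tested D-type cyclins were Ccnd3, which fell from 185 to 148 TPM (-0.32; limma adjusted p = 4.48e-06), and Ccnd2 (-0.14; limma adjusted p = 0.00734). The Ccnd2 call was lost with median-of-ratios scaling (-0.05, adjusted p = 0.138), nuclear rescaling (-0.05, 0.191) and quantile normalization (-0.02, 0.635).

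In the list of the LYL1 and TAL1 complex, 7 of 10 tested fell and 2 rose, with a median of -0.48 against -0.08 for all tested genes. Of all tested genes, 39.9% fell and 26.7% rose. Tal1 fell from 250 to 173 TPM (-0.53; limma adjusted p = 1.44e-08), its partner Tcf3 from 101 to 62.8 (-0.68; limma adjusted p = 6.89e-07) and Ssbp2, which stabilises LDB1, from 28 to 14.2 TPM (-0.93; limma adjusted p = 4.55e-08). The bridging proteins Ldb1 (0.37; limma adjusted p = 3.51e-05) and Lmo2 (0.14; limma adjusted p = 0.0017) rose. Of 3 tested RUNX1 partners and relatives, 2 rose. Cbfb, which encodes the subunit that steadies RUNX1 on DNA, went from 62.3 to 86.9 TPM (0.48, limma adjusted p = 7.61e-06). The corepressor gene Cbfa2t2 went from 12.4 to 18.4 TPM (0.54, limma adjusted p = 6.83e-06). The third, Cbfa2t3, did not pass (0.1) but was called higher under other processing. It passed with median-of-ratios scaling (0.19, limma adjusted p = 0.000897) and nuclear rescaling (0.19, limma adjusted p = 0.00177). It also passed with quantile normalization (0.23, limma adjusted p = 0.000271) and voom (0.18, adjusted p = 7.04e-05).

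Of 11 other progenitor regulators tested, 7 rose and 4 fell with both treatments, with a median of 0.66. Of all tested genes, 26.7% rose and 39.9% fell in that comparison. Kit, the receptor for stem cell factor, rose from 14.5 to 57.3 TPM (1.91; limma adjusted p = 1.17e-09) and Gata2, the GATA factor that precedes GATA1, from 39.7 to 77.1 TPM (0.94; limma adjusted p = 1.08e-08). Spi1, which encodes the myeloid factor PU.1 and is also in the ETS list, rose from 13.1 to 36.7 TPM (1.42; limma adjusted p = 3.75e-09). The members that fell were Bcl11a (-0.66), Bmi1 (-0.65), Ikzf1 (-0.21) and Zfpm1 (-0.18). Under each of 3 other scalings 3 fell: Zfpm1 did not pass with median-of-ratios scaling (-0.09, adjusted p = 0.222) or nuclear rescaling (-0.09, 0.19), and Ikzf1 was at 0 with quantile normalization (adjusted p = 0.993). Of 11 other ETS factors tested, 6 rose and 2 fell, with a median of 0.39, and Fli1, a megakaryocyte factor, rose from 32.2 to 54.8 TPM (0.75; limma adjusted p = 6.57e-07). With DTPA alone the progenitor list had 3 higher and 3 lower, where 9.98% of all tested genes rose and 18.8% fell. With the knockdown alone 2 were lower, where 17.5% of all tested genes fell.

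**Figure D3:**
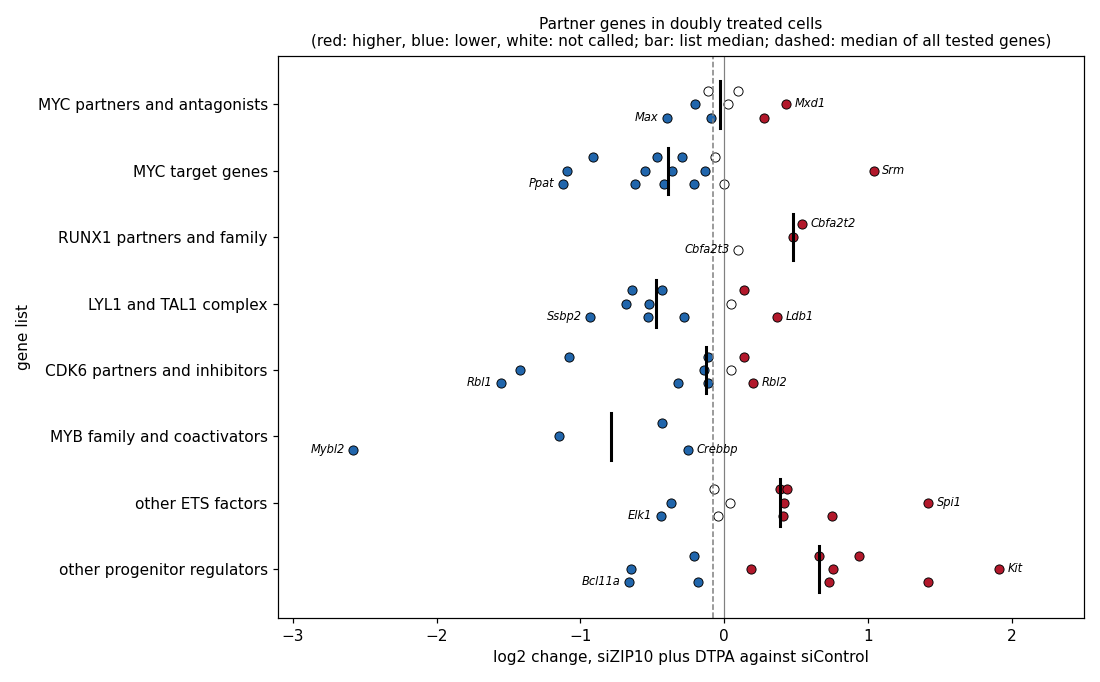
log2 change of each tested partner gene in siZIP10 plus DTPA against siControl (horizontal axis), by list (vertical axis); each point is a gene, red higher, blue lower, white not called, bars are list medians, and the dashed line is the median of all tested genes. MYC targets have a median of -0.39 and the MYB family list of -0.79, while other progenitor regulators have 0.66.

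Markers of the labelled cell type and of others moved with the same libraries. The erythroid markers summed to 40800 to 45700 TPM in siControl and 38700 to 46500 with both treatments. With DTPA and the knockdown alone they summed to 48300 to 54800 and 46200 to 49500. Globin genes made up most of these sums. From siControl to both treatments, mean Hba-a1 went from 11700 to 4150 TPM and Hbb-bs from 21500 to 26800. Hbb-bt went from 2890 to 6780 TPM, with doubly treated libraries from 3250 to 11500. The sum therefore does not show how single markers moved. All 11 of the 12 listed that were matched were expressed. Of these, 7 fell with both treatments, and 2 rose, Hbb-bs (0.32; limma adjusted p = 0.000768) and Alas2 (0.22; limma adjusted p = 3.1e-05). Of all tested genes, 39.9% fell and 26.7% rose with both treatments. With quantile normalization 7 erythroid markers still passed as lower, but Hbb-bs (0.19, adjusted p = 0.138) and Alas2 (-0.03, adjusted p = 0.484) did not pass. Slc4a1, which encodes the red cell anion exchanger band 3, fell from 445 to 22.5 TPM (-4.24; limma adjusted p = 1.2e-13). Gata1 fell from 2070 to 1020 TPM (-1.02; limma adjusted p = 2.19e-09) and is among the 7 counted as lower. Mean Gata1 was also lower with DTPA alone (1460 TPM) and with the knockdown alone (1550 TPM), against siControl libraries of 2010 to 2100. The line has no GATA1 of its own and carries an introduced form, so these are not levels of a native erythroid marker. How much of the Gata1 signal comes from the introduced form was not measured. The 10 megakaryocyte markers summed to 16.2 to 17.7 TPM in siControl, 25.8 to 26.8 with DTPA, 17.4 to 18.7 with the knockdown and 57.3 to 58.7 with both; of 4 tested, 3 rose, while Gp6 and Ppbp were at 0 in every library. The 9 mast cell and basophil markers summed to 0.832 to 1.41, 2.12 to 2.6, 1.84 to 2.18 and 20.9 to 23.3 TPM in the same order, of which Hdc, histidine decarboxylase, made up nearly all (1.1 to 21.6 TPM), with Mcpt8, Fcer1a, Ms4a2 and Cma1 at 0. The 11 myeloid markers summed to 2.33 to 3.32, 3.22 to 3.27, 2.98 to 5.16 and 5.9 to 6.8 TPM, with Mpo, Elane, Prtn3, S100a8 and S100a9 at 0, and the 10 lymphoid ones to at most 3.15 TPM, with Pax5 and Rag1 at 0. The part of these markers in the changes of Myb, Myc, Hhex and Runx1 was not tested.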

How the data were processed

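Per the labels, RNA was made into libraries with a stranded kit. The authors deposited TPM, a gene's transcripts among 1e+06, in 1 file per library. The submitters' processing notes name HISAT2 2.1.0, Trimmomatic 0.33, featureCounts, FastQC and edgeR, and as build mm10. Which annotation and strand option they used, and in which order the tools ran, is not given in the sources used here. TPM keeps no counts, but TPM multiplied by GENCODE M21 exon length (53243 names matched uniquely) fell on whole reads for 99.0% to 99.2% of values up to 20 reads (tolerance 0.1 read). These recovered reads served for depth and for voom.

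The 12 libraries gave 11 for analysis, since 1 file repeats another. Of the genes, 11379 averaged 1 TPM or more and were tested as log2(TPM + 1) with limma 3.58.1 in R 4.3.3 (group means, trend, 7 residual and 3.21 prior degrees of freedom), two-sided, Benjamini-Hochberg adjusted over all genes in each of 6 comparisons. The script was tested on simulated data. Motifs and levels used pandas 2.3.3 and numpy 2.4.6 in Python 3.11.15, and plots matplotlib 3.10.9. Replicate numbers are not stated to mark a shared batch and were not used as pairs (a check is given with the effects of processing).

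The 7 genes and the lists were chosen with earlier results of these data known. Named genes were the 7, Slc39a10, their 3 most correlated genes, their protein-coding neighbours, and from each list its member with the largest double change and others that passed; Rb1 relatives, cyclins and markers named are list members. Alternatives were other pseudocounts (0.1), filters (none, 5 TPM), scalings, tests (no trend, voom), fits, left-out libraries and the repeated library kept.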

Additional observations from a re-analysis of the deposited data

Results flagged for a closer look

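For 4 of the 7 genes the effect of DTPA in siZIP10 cells differed from its effect in siControl cells by limma's interaction test with Benjamini-Hochberg adjustment. The differences on the log2(TPM + 1) scale were 1.72 for Myb (adjusted p = 4.23e-05), 0.92 for Myc (adjusted p = 0.00121), 0.37 for Hhex (adjusted p = 0.00338) and 1.07 for Lyl1 (adjusted p = 0.0262). Over all tested genes 12% passed in that direction. The Myb, Myc and Hhex calls held in all alternatives run, and the Lyl1 call, on 6 to 31 reads per library, was lost on leaving out any 1 of 5 libraries. Lyl1 was also in the test only through its doubly treated libraries.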

How the results depend on the processing

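Each of the 42 results (7 genes in 6 comparisons) was recomputed under up to 22 alternatives, 899 values in all: 828 kept direction and side of the threshold, 27 newly passed, 25 no longer passed and 19 changed sign. Of the 23 called results, 17 held in every alternative run and 0 changed sign. A filter of 5 TPM left Myb, Lyl1 and Cdk6 untested. Low genes depend most on scale: the Myb change in doubly treated cells was 2.85 with voom.

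No pairing by replicate number was seen: deviations of same-numbered libraries correlated at -0.06 to 0.06, and those of other pairs at -0.09 to 0.07. With 2 or 3 libraries per group this cannot show that the cultures were handled apart. A replicate block gave 2.08 for Myb, 1.33 for Myc and 1.09 for Hhex with both treatments, and 3 genes higher and 1 lower; it changed the call or direction of 0 of the 42 results.

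Sign changes, all in uncalled results, were as follows, and their cause was not tested. Etv6 with both treatments was 0.08 with median-of-ratios scaling, 0.07 with nuclear rescaling or quantile normalization and 0.05 with voom, and -0.06 to 0.07 over left-out libraries. Etv6 with the knockdown in DTPA was 0.03, 0.05 and 0.02 with median-of-ratios, nuclear rescaling and voom, and -0.08 to 0.06 over left-out libraries. Over left-out libraries Etv6 with DTPA alone was -0.05 to 0.07, Myb with the knockdown alone -0.09 to 0.08, Lyl1 with both -0.06 to 0.3 and the Cdk6 interaction -0.03 to 0.18, which was -0.06 with the repeated library kept. The Runx1 interaction was 0.02 with nuclear rescaling.

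Counts among the 7 moved as follows. DTPA alone called 2 higher without the trend and 3 with voom, and 2 lower with quantile normalization (0 to 1 on leaving out a library). The knockdown alone called 1 higher with no filter (1 to 3). The knockdown in DTPA called 2 higher with the 5 TPM filter and 3 with only the groups compared (3 to 5), and 0 lower with median-of-ratios, nuclear rescaling or quantile normalization (0 to 1). The interaction called 2 higher with the 5 TPM filter, where fewer of the 7 were tested (3 to 4 over left-out libraries), and 1 lower, Etv6, with quantile normalization, voom or the repeated library kept (0 to 1).

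Over all genes, DTPA alone called 1136 higher (1727 with quantile normalization, 694 without siControl plus DTPA replicate 1) and 2136 lower (1305 without replicate 2), and the interaction 1369 higher (2118 with nuclear rescaling). With quantile normalization the share of calls that were higher went from 34.7% to 51.1% (DTPA alone), 42.9% to 54.3% (knockdown alone) and 40.1% to 50.2% (both). With nuclear rescaling it went from 38.2% to 50.1% (DTPA in knockdown), 40.2% to 53% (knockdown in DTPA) and 37.1% to 54.2% (interaction). With median-of-ratios scaling it was 47.7% for DTPA alone and 48.7% for DTPA in knockdown, and with voom 47.3% for the interaction.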
